A study of Mus musculus with 22 samples.

Results

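This account covers 1 comparison in a series of mouse liver tumours: the effect of a model antigen in tumours driven by MYC and β-catenin, in the second of 2 sets of tumours. Its members were chosen by genotype label, not by any measured value: 3 tumours with lucOS and 3 with luc, 6 of the 22 tumours of the series. All 6 arose in C57BL/6 mice given plasmids by the hydrodynamic tail-vein method, a fast, high-volume injection that brings DNA into liver cells. All 6 carried MYC and CTNNB1 (the gene of β-catenin), and none had been treated with any agent. By label, the groups differed only in the third construct. It was luciferase alone (luc) or luciferase joined to model antigen peptides (lucOS). The tumours are called luc 1 to luc 3 and lucOS 1 to lucOS 3 here, in the order of their records. The second set also held 4 tumours labelled with MYC, lucOS and p53 in place of CTNNB1. Those 4 tumours entered the fit only to estimate the spread, and their levels are given as a reference. The names of all 6 β-catenin tumours begin with JAX, and those of 3 of the 4 p53 tumours with AL. What these prefixes stand for is not given. Driver and prefix thus largely go together where p53 levels are set beside the others. Age, sex, the promoters of the constructs and whether each tumour came from its own animal are not given in the sources used here, so the p-values measure the spread between tumour samples.

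β-catenin is the effector of Wnt signalling: once stabilised it enters the nucleus and, with TCF factors, switches on targets such as Axin2, Lgr5 and Notum, and in the liver it sets the pericentral program of glutamine synthesis and drug metabolism. A foreign peptide presented on MHC class I makes a tumour cell visible to CD8 T cells. Dendritic cells, drawn in by chemokines such as Ccl5, carry such antigen to T cells and prime them. The comparison of lucOS with luc asks how β-catenin tumours labelled with a model antigen differ from β-catenin tumours labelled without it. The title of the series concerns escape of such tumours from immunity.

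The libraries held 41.11 M to 50.12 M reads over genes (M, 1000000 reads), so a deposited value of 1 stood for about 1 read (0.7277 to 0.9696 per read). The driver labels were checked first. Axin2 read 567, 472 and 506 in the luc tumours and 679.7, 349 and 1047 in the lucOS tumours, against 8.08 ± 4.06 (SD, n = 4) in the p53 tumours. Lgr5 read 311, 184 and 257 and 247, 373 and 173 in the same order, against 1.98 ± 1.39 (SD, n = 4). Both Wnt targets were thus high in all 6 β-catenin tumours. Ctnnb1 itself read 24610, 25940 and 24700 with luc and 24220, 24790 and 25460 with lucOS, and the 2 groups differed by -0.015 ± 0.16 (SE) on the log2 scale. Trp53, which was not targeted in these tumours, differed by -0.18 ± 0.25 (SE). Mouse Myc differed by 0.16 ± 0.63 (SE) and was highest in lucOS 3, at 375. Whether the injected MYC and CTNNB1 sequences add to these rows is not known. The luc and lucOS transcripts were not among the genes measured, so the antigen label itself could not be checked. Xist, the RNA of the silenced X chromosome, read 33320 to 54340 in all 6. The hepatocyte marker Alb took 0.209% to 1.34% of the summed values. Most acinar pancreas markers were near 0 (9 of 12 were too low to test, and 5 were at 0 in all 6 tumours).

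No gene passed the test between lucOS and luc. Of 15625 genes tested with limma on log2 of the value plus 1, 0 (0%) had an adjusted p under 0.05, and every adjusted p was 1. At an unadjusted p under 0.05 there were 288 genes, 1.84% of those tested: 161 (1.03%) higher and 127 (0.813%) lower with lucOS. That share was below the one the threshold itself would give with no difference between the groups. edgeR on the recovered reads also called 0 genes (0%), with 371 at an unadjusted p under 0.05. DESeq2 on the same reads called 10 of the 14241 genes to which it gave an adjusted p (0.0702%), 3 higher and 7 lower. Over all genes tested the median difference was -0.012 (quartiles -0.18 and 0.17), and 48.0% of the differences lay above 0. The precision behind these counts was moderate. The median standard error was 0.32, and the median 95% interval reached 0.71 to each side, a 1.63-fold change. For 8495 genes (54.4%) the interval lay within 1 log2 unit of 0. For the others it reached beyond 1 log2 unit on at least 1 side.

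The 6 tumours did not sort by antigen. Across all genes tested, the pairwise Pearson correlation of log2 values was 0.9252 to 0.966 within luc, 0.919 to 0.9444 within lucOS and 0.9095 to 0.9687 between the groups. The mean over the 9 pairs that cross the groups, 0.949, was not below the means within luc (0.944) and within lucOS (0.934). These correlations are across genes, which are not independent replicates. Of the 4 closest pairs, 3 joined a luc to a lucOS tumour: luc 1 with lucOS 3 (0.9687), luc 3 with lucOS 2 (0.9661) and luc 2 with lucOS 1 (0.9655). The first principal component, with 48.6% of the variance, set luc 1 and lucOS 3 at 1 end (-76.8 and -70.3) and lucOS 2 and luc 3 at the other (72.1 and 59.3).

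**Figure D1:**
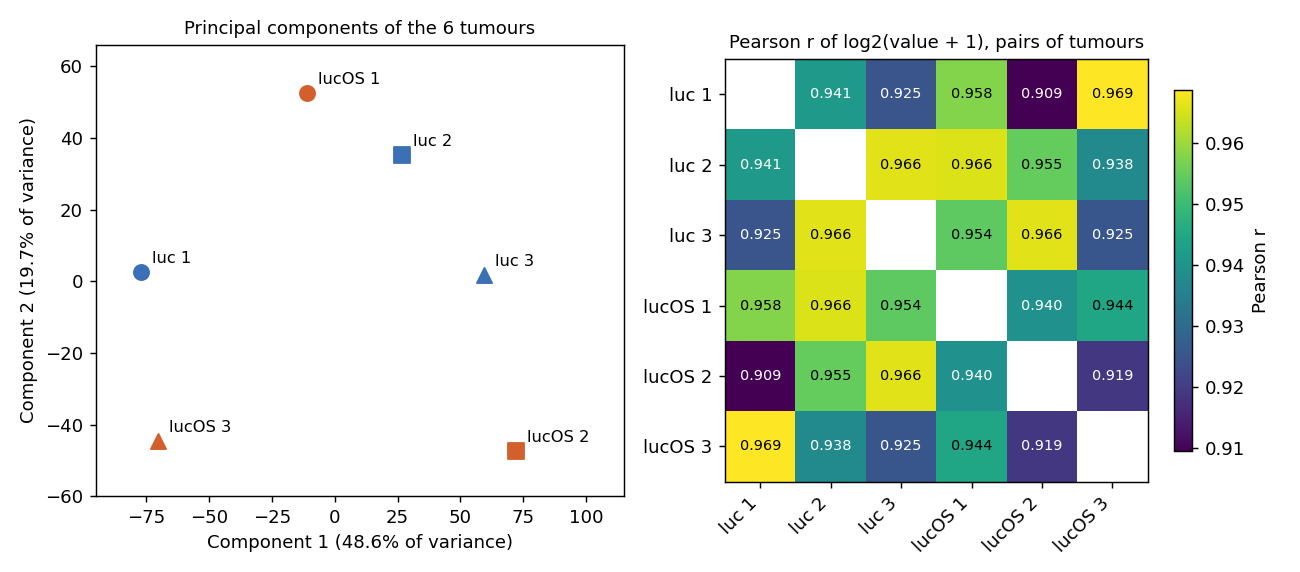
Left, each of the 6 tumours on the first and second principal components of log2(value + 1) over 15625 genes, with luc in blue and lucOS in orange. Right, Pearson r for each pair of tumours. The first component, with 48.6% of the variance, places luc 1 beside lucOS 3, and their r of 0.969 is the highest of the pairs.

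T cell genes were low in both groups, and none passed the test. Of 17 genes on the T cell list, 16 were measured and tested. Their median difference was -0.0044, with 8 above 0 and 8 below, against -0.012 for all genes. Cd3e, a chain of the T cell receptor complex, read 10.4, 8.73 and 11.1 with luc and 7.28, 6.63 and 14.8 with lucOS, which stands for 8 to 18 reads a tumour, against 47.4 ± 6.34 (SD, n = 4) in the p53 tumours. The ranges of luc and lucOS overlapped, and both lay below the p53 tumours. Cd8a, the CD8 coreceptor of killer T cells, read 4.32, 4.85 and 18.8 with luc and 12.4, 21.6 and 20.6 with lucOS. The lucOS tumours and luc 3 lay at 12.4 to 21.6, while luc 1 and luc 2 lay at 4.32 and 4.85. The difference of 1.13 ± 0.55 (SE) did not pass (unadjusted p 0.067), and its 95% interval ran from -0.10 to 2.37. The p53 tumours, which are labelled with the same antigen, read 132 ± 41.2 (SD, n = 4). In bulk tissue, fewer cells of a type and less RNA per cell cannot be told apart. Cd4, the coreceptor of helper T cells, read 20.8, 46.5 and 118 and 75.7, 63.0 and 63.4, with overlap. The most abundant gene on the list, Cd247, read 354, 480 and 422 and 491, 484 and 249 and differed by -0.090 ± 0.29 (SE).

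No cytotoxic or natural killer cell gene passed the test either. Of 15, 13 were tested, 7 above 0 and 6 below, with a median of 0.030. The median moved to -0.70 when the 6 tumours were fitted alone, where fewer members pass the filter on low values, and ranged from -0.67 without luc 2 to 0.48 without luc 3. Gzma, a granule protease of killer cells, read 23.4, 12.6 and 31.5 with luc and 13.8, 9.12 and 9.87 with lucOS, against 126 ± 52.3 (SD, n = 4) in the p53 tumours. Its difference of -0.91 ± 0.48 (SE) did not pass (unadjusted p 0.0865). Gzmb read 9.51, 0.9696 and 24.7 and 9.46, 7.46 and 9.05, against 90.8 ± 18.6 (SD, n = 4). The luc tumours spread more widely than the lucOS tumours here, from 1 read in luc 2 upward. Ccl5, the chemokine that draws T cells and dendritic cells, read 9.51, 12.6 and 52.0 with luc and 20.4, 27.4 and 19.8 with lucOS. All 3 lucOS values lay between luc 2 and luc 3, and the p53 tumours read 148 ± 51.2 (SD, n = 4). Its log2 difference was 0.24 ± 0.60 (SE) by limma and -0.12 by DESeq2, so its sign depended on the method. Klrk1, the activating receptor NKG2D, read 13.8, 8.73 and 24.7 and 10.9, 13.3 and 4.11.

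On the list of checkpoint and regulatory T cell genes, 13 members were tested and 1 had an unadjusted p under 0.05. Pdcd1, which encodes the PD-1 receptor, read 0, 1.94 and 5.11 with luc and 9.46, 5.81 and 8.23 with lucOS, so the groups did not overlap. These values stand for 0 to 13 reads a tumour, and the p53 tumours read 59.5 ± 24.8 (SD, n = 4). The log2 difference was 1.73 ± 0.68 (SE) (unadjusted p 0.0292, adjusted p 1), and with a pseudocount of 5 it was 0.85. The ligand gene Cd274 (PD-L1) read 135, 111 and 165 and 143, 134 and 105. Foxp3, the factor of regulatory T cells, read 332, 387 and 457 and 339, 384 and 387, with a difference of -0.074 ± 0.25 (SE). Both overlapped between the groups.

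**Figure D2:**
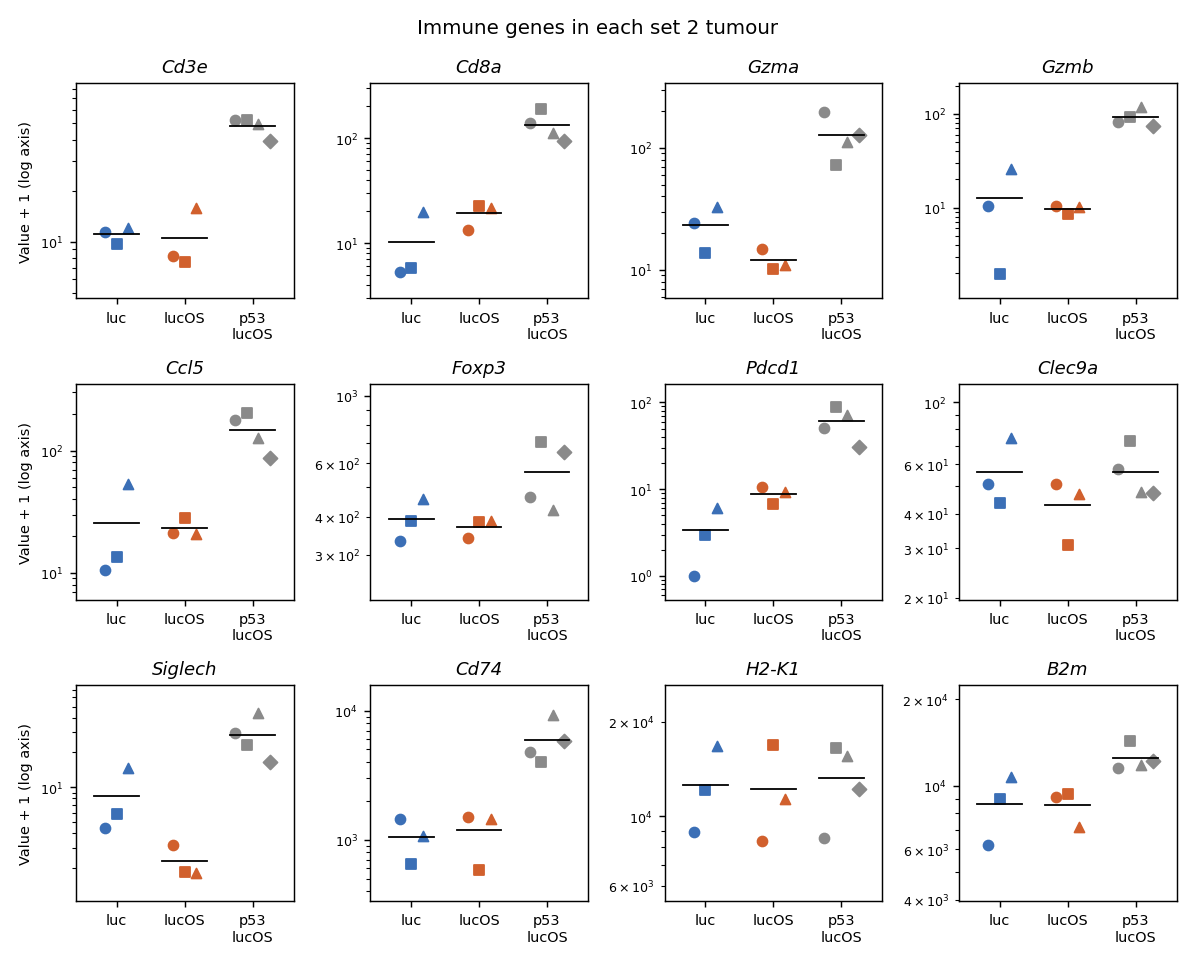
Deposited value plus 1 on a log axis for 12 immune genes in each tumour of the second set: luc β-catenin in blue, lucOS β-catenin in orange and lucOS p53 in grey, with the bar at the group mean. In Cd3e, Cd8a, Gzma, Gzmb, Ccl5 and Pdcd1 both β-catenin groups lie below all 4 p53 tumours, and only Pdcd1 and Siglech show luc and lucOS without overlap.

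Dendritic cell genes tended to lie below 0 without passing. Of 13 tested, 10 were below 0, with a median of -0.31 against -0.012 for all genes, and 1 had an unadjusted p under 0.05. That gene was Siglech, a lectin of plasmacytoid dendritic cells, at 3.46, 4.85 and 13.6 with luc and 2.18, 0.8292 and 0.823 with lucOS (difference -1.72 ± 0.59 (SE), or -0.89 with a pseudocount of 5). Its lucOS values stand for 1 to 3 reads each. Clec9a, a receptor of cross-presenting dendritic cells, read 50.2, 42.7 and 73.3 and 50.2, 29.9 and 46.1. Irf8, a factor of the same lineage, read 420.3, 349 and 753 and 483, 427 and 285. Luc 3 was the highest of the 6 for each of these genes, and without luc 3 the list's median was -0.03. Among 19 macrophage and Kupffer cell genes the median was -0.21, with 12 below 0. The only one with an unadjusted p under 0.05 was Itgam (CD11b), at 143, 160 and 119 with luc and 117, 48.9 and 88.0 with lucOS. Lyz2, the lysozyme of myeloid cells, read 2437, 3048 and 4580 and 3976, 5795 and 1742, and Cd5l, a secreted protein of Kupffer cells, read 1253, 1740 and 2535 and 945, 1755 and 781. Tumour lucOS 3 was the lowest of the 6 for Cd5l, Lyz2 and Irf8. Among 11 neutrophil genes, 7 were above 0 (median 0.096), and Retnlg alone had an unadjusted p under 0.05, at 3.46, 6.79 and 2.56 with luc and 11.6, 7.46 and 29.6 with lucOS. These Retnlg values stand for few reads, and its difference of 1.58 was 1.08 with a pseudocount of 5. The list's most abundant gene, Csf3r, read 64.0, 81.5 and 134 and 70.6, 54.7 and 90.5. B and plasma cell genes gave 5 of 8 above 0, and chemokines 8 of 20. Ccl6 reached 3632 in lucOS 2 against 273 to 689.5 in the other 5 tumours. Cxcl12, the most abundant chemokine of the list, read 1313, 3485 and 3288 and 2511, 2879 and 1764.

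No gene of antigen display passed the test. For class I presentation, 18 genes had a median difference of -0.015, with 9 above 0 and 9 below. H2-K1, a classical class I heavy chain, read 8900, 12150 and 16770 with luc and 8355, 16890 and 11350 with lucOS, and B2m, the light chain of class I, read 6197, 8999 and 10690 and 9087, 9327 and 7157. The 95% interval of the difference ran from -0.81 to 0.69 for H2-K1 and from -0.45 to 0.47 for B2m. For class II presentation, 10 tested genes had a median of 0.070. Cd74, the invariant chain of class II, read 1434, 647 and 1061 and 1510, 579 and 1452, against 5955 ± 2278 (SD, n = 4) in the p53 tumours. H2-Ab1, a class II β chain, read 581, 221 and 415 and 594, 193 and 511. In both class II genes the lowest tumour of each group was its second one, luc 2 and lucOS 2.

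Interferon response genes did not pass either. Of 22 type I interferon genes, 17 were below 0, with a median of -0.37. Leaving out each tumour in turn gave medians from -0.66 to 0.070, the highest without luc 3. The most abundant was Stat2, a transducer of interferon signals, at 2453, 3898 and 3859 with luc and 2271, 1872 and 2723 with lucOS. Of 19 interferon γ genes, 11 were above 0, with a median of 0.031. Iigp1, an interferon-induced GTPase, read 1508, 1339 and 3386 and 941, 1877 and 1524. Of 20 acute phase genes, 17 were below 0 (median -0.35), and Saa1, serum amyloid A, ranged from 32.3 to 460 within lucOS alone. No member of these interferon and acute phase lists had an unadjusted p under 0.05.

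In some single genes the values of the groups did not overlap. This held for 709 genes, 4.54% of those tested: 341 (2.18%) higher and 368 (2.36%) lower with lucOS. A random order of 3 and 3 unrelated values gives a larger share in each direction, so these counts show no excess. Among the 709 genes with a mean of at least 20 in the higher group, the 15 with the smallest p in each direction are described here. All have an adjusted p of 1 by limma, and since they were picked for not overlapping, their values are a description. Positions are in GRCm38, the assembly also called mm10.

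Onecut1 had the smallest p of the comparison (0.000166). It encodes a transcription factor of hepatocytes and bile ducts (also called HNF6) and spans chr9:74861921-74891781 (+ strand). It read 735, 781 and 679 in the luc tumours and 170.3, 281 and 161 in the lucOS tumours, a difference of -1.88 ± 0.32 (SE) with a 95% interval from -2.59 to -1.16. The highest lucOS value was 0.414 times the lowest luc value. DESeq2 called it at an adjusted p of 0.00344. The transcript 1700048O20Rik (chr9:121937223-121947016 (+ strand)) read 378, 535 and 952 with luc and 2.91, 2.49 and 21.4 with lucOS, where lucOS 1 had 4 reads and lucOS 2 had 3. Its difference was -6.42 ± 1.29 (SE), and DESeq2 called it too (adjusted p 0.00876).

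Scd1, the desaturase that makes monounsaturated fatty acids (chr19:44394455-44407879 (- strand)), read 71270, 56280 and 63920 with luc and 24540, 19730 and 28130 with lucOS, a difference of -1.41 ± 0.35 (SE). Acsl5, which couples long-chain fatty acids to coenzyme A, read 19150, 18150 and 16960 and 11660, 9496 and 11640, and DESeq2 called it (adjusted p 0.0496). Abcd2, a peroxisomal carrier of very long fatty acids, read 4170, 3882 and 5626 and 1787, 2706 and 1649. For these 3 genes all lucOS values lay well below the lowest luc value. Fgf21, a liver hormone of fasting, read 60.5, 32.97 and 99.7 and 16.01, 14.1 and 15.6. Fitm1, a lipid droplet protein, read 472, 259 and 109 and 32.8, 3.32 and 77.4, with wide spread in both groups. The differences of Acsl5, Abcd2, Fgf21 and Fitm1 were -0.73, -1.17, -1.87 and -3.40. For Fitm1 the difference was -2.88 with edgeR and -2.89 with DESeq2.

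The other lower genes had mixed roles. Steap4, a metal reductase, read 3168, 3505 and 5199 with luc and 1313, 1525 and 2432 with lucOS. Mybl1, a transcription factor of the Myb family, read 2507, 1937 and 1904 and 1291, 1184 and 1263. P2rx7, an ion channel opened by extracellular ATP, read 299, 307 and 322 and 173, 145 and 146, and DESeq2 called it (adjusted p 0.014). In these 3 genes the lucOS tumours lay below all luc tumours, with the widest spread in Steap4. Elf3, an epithelial ETS factor, read 420.3, 358 and 419 and 216, 231 and 234, with both groups tight. Treml4, a receptor of myeloid cells, read 73.5, 75.6 and 135 and 42.9, 21.6 and 28.8. Pkp3, a plakophilin of desmosomes, read 51.0, 104 and 53.7 and 21.1, 10.8 and 34.6. The last 2, Serf1 and Pclaf (a PCNA-binding factor, listed under its older RIKEN clone name), had differences of -0.93 and -1.30.

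Of the genes higher with lucOS, Ngef had the smallest p (0.000359). It encodes an exchange factor of small GTPases, spans chr1:87476834-87573870 (- strand), and read 748, 678 and 543 with luc and 1299, 1521 and 1814 with lucOS, a difference of 1.23 ± 0.23 (SE). Gpr155, a membrane protein, read 409.9, 541 and 827 and 1308, 1502 and 1276. DESeq2 called both, at adjusted p 0.00876 and 0.0135. Cubn, the endocytic receptor cubilin (chr2:13276338-13491813 (- strand)), read 189, 15.5 and 228 and 824, 1495 and 2577, a difference of 4.04 ± 0.93 (SE), and was the third gene that DESeq2 called higher (adjusted p 0.014). The luc tumours spread widely in Cubn, with luc 2 the lowest, yet all lay below the lowest lucOS tumour. Lin28b, a fetal RNA-binding protein that blocks the let-7 microRNAs (chr10:45376620-45486395 (- strand)), read 1.73, 3.88 and 63.9 with luc and 841, 323 and 148 with lucOS. Its difference of 5.17 ± 1.17 (SE) rests on low counts, 2 reads in luc 1 and 4 in luc 2, and with a pseudocount of 5 it was 4.44. With edgeR and DESeq2 the differences were smaller, 4.23 and 4.26 for Lin28b and 3.50 and 3.50 for Cubn. The p53 tumours read 4633 ± 1972 (SD, n = 4) for Cubn and 840.4 ± 722 (SD, n = 4) for Lin28b.

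Gsta2, a glutathione S-transferase, read 559, 818 and 791 with luc and 2338, 1681 and 3390 with lucOS, a difference of 1.73 ± 0.44 (SE). It has near-identical relatives, so its reads may be shared with them. Its relative Gsta1 read 89.1, 54.3 and 131 and 160.1, 37.3 and 606. Abcc1, a pump that exports glutathione conjugates, read 1150, 837 and 677 and 1670, 1534 and 1466, a difference of 0.84 ± 0.21 (SE). Arhgap21, a GTPase-activating protein, read 1961, 1772 and 1810 and 3060, 2584 and 2633. Dstn, the actin-severing protein destrin, read 5204, 4578 and 5187 and 6947, 7261 and 9265. Shroom3, an actin-binding protein of epithelia, read 509, 558 and 557 and 975, 1600 and 899. For Arhgap21, Dstn and Shroom3 the gap between the groups was larger than the spread within luc. For Dstn and Shroom3 it was smaller than the spread within lucOS. Mnt, which competes with MYC for the partner MAX, read 780.1, 1132 and 881 and 1431, 2255 and 1239. The forkhead factor Foxp1 read 963, 927 and 864 and 1131, 1363 and 1574. Man1a2, a mannosidase of the Golgi, had the smallest difference of the group, 0.45 ± 0.12 (SE). The other 3, 2310007B03Rik, Ankrd16 and Nhsl1, had differences of 1.14, 0.57 and 0.58.

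The other 3 genes that DESeq2 called, all lower, stand outside that selection and were named after their values were seen. Ankrd54 read 998, 1122 and 1001 with luc and 732, 770.3 and 755 with lucOS, without overlap. Cldn7, a claudin of tight junctions, read 2218, 15.5 and 101 and 13.1, 34.8 and 31.3, with luc 1 far above the rest and luc 2 among the lucOS tumours. Mtus2, a microtubule protein, read 637, 14.5 and 472 and 18.9, 8.29 and 22.2, with luc 2 again among the lucOS tumours. Limma's unadjusted p was 0.0987 for Cldn7 and 0.0277 for Mtus2.

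**Figure D3:**
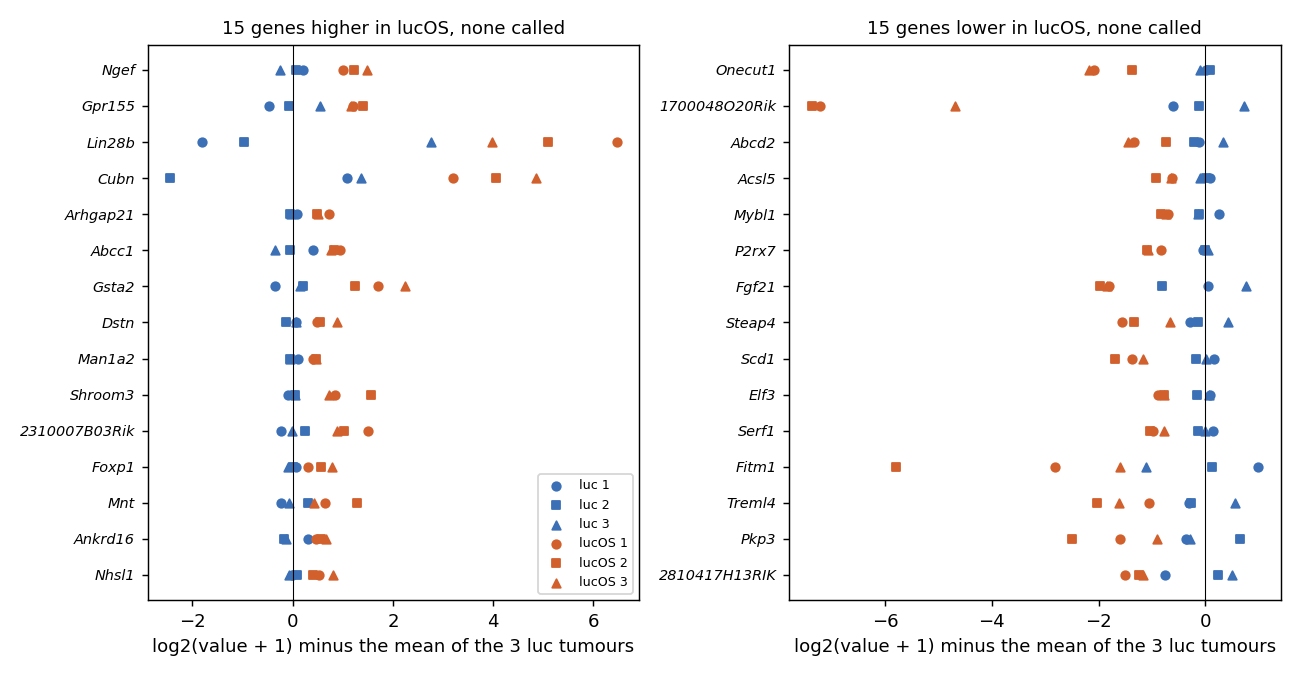
For the 15 genes in each direction chosen for the smallest p among those whose groups do not overlap, each tumour's log2(value + 1) minus the mean of the 3 luc tumours (luc in blue, lucOS in orange, the marker shape giving the tumour number). None was called by limma. Lin28b, Cubn, 1700048O20Rik and Fitm1 have the largest differences between group means.

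On the lists of genes with a shared role, limma and edgeR called 0 genes, and DESeq2 called 1, Onecut1 of the bile duct list. For 25 of the 37 lists the sign of the median changed when 1 tumour or another was left out. On the list of lipid synthesis genes, 17 of 18 tested members were below 0, with a median of -0.21 against -0.012 for all genes, and 1, Scd1, had an unadjusted p under 0.05. Fasn, the fatty acid synthase, read 23300, 60840 and 40720 with luc and 39620, 28340 and 20900 with lucOS, and Hmgcs1, of cholesterol synthesis, read 13730, 26060 and 27500 and 20810, 16610 and 18710. Both overlapped, with luc 1 inside or below the lucOS range. Of 18 PPARα and fasting genes, 15 were below 0 (median -0.43). Plin2, which coats lipid droplets, read 17410, 15820 and 13560 and 10570, 5556 and 11400 without overlap (-0.83 ± 0.46 (SE), unadjusted p 0.106). Leaving out each tumour in turn gave medians from -0.49 to -0.083 for lipid synthesis and from -0.75 to -0.22 for the PPARα list.

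Wnt target genes were on balance slightly above 0. Of 12 tested, 10 were above 0 and 2 below, with a median of 0.37. Znrf3, a ligase that removes Wnt receptors, was the only one with an unadjusted p under 0.05 (0.0289), at 1079, 1328 and 1066 with luc and 1646, 1479 and 1474 with lucOS. The most abundant, Ccnd1, the cyclin D1 gene, pointed the other way, at 2519, 2864 and 10040 and 732, 6150 and 1427 (-1.16 ± 0.73 (SE)). Notum, a secreted Wnt inhibitor, read 1710, 2114 and 1412 and 1788, 439 and 2882. Some members were set apart by a single tumour: Nkd1, a feedback inhibitor, read 1231 in lucOS 3 and 11.1 to 75.2 in the other 5, and Apcdd1, another inhibitor, read 884 in lucOS 3 and 6.82 to 63.9 elsewhere. Of 18 pericentral hepatocyte genes, 11 were below 0 (median -0.30, 0.25 without luc 2 and 0.18 without lucOS 2). Glul, the glutamine synthetase, read 17350, 11920 and 11240 and 11960, 7394 and 13390, and Cyp2e1, a pericentral cytochrome P450, read 63430, 40480 and 29820 and 22690, 52510 and 174500, highest in lucOS 3. Of 18 periportal genes, 14 were above 0 (median 0.44, and -0.19 without luc 1 or -0.25 without lucOS 2). Cps1, the first enzyme of the urea cycle, read 52930, 332800 and 200900 and 134500, 293200 and 181500, so that luc 1 was the lowest of the 6. No pericentral or periportal gene had an unadjusted p under 0.05.

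Almost all cell cycle genes lay slightly below 0, and none passed. Of 24 tested, 23 were below 0, with a median of -0.41, and 0 had an unadjusted p under 0.05 by limma. Their summed values were 68970, 114900 and 106000 in the luc tumours and 115300, 82920 and 40090 in the lucOS tumours. Tumour lucOS 3 was the lowest and lucOS 1 the highest of the 6, so the groups overlapped. Cdc20, an activator of mitotic exit, read 3793, 10880 and 5827 and 6247, 3443 and 1771, and Top2a, the DNA topoisomerase of dividing cells, read 8195, 9475 and 8945 and 10600, 6426 and 3738. Mki67, the Ki-67 antigen, read 9035, 12270 and 10710 and 18960, 12220 and 5539, and was the 1 member above 0. Leaving out each tumour in turn gave medians from -0.73 to 0.0072, the highest without lucOS 3. Among 12 fetal liver genes, Lin28b was the only one with an unadjusted p under 0.05, and 7 were below 0. H19 and Igf2, neighbouring imprinted genes of fetal growth, were lowest in lucOS 3 (H19 156500 and Igf2 14480). In the other 5 tumours H19 read 571200 to 1437000 and Igf2 113500 to 467400.

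Of 21 stellate cell and collagen genes, 17 were below 0 (median -0.38, and 0.059 without luc 1), none at an unadjusted p under 0.05. Col1a1, a chain of type I collagen, read 8747, 4737 and 2357 with luc and 4577, 822 and 2719 with lucOS, and Col3a1, of type III collagen, read 12420, 5666 and 2715 and 5510, 1285 and 4443. In both, luc 1 was the highest and lucOS 2 the lowest of the 6. All 10 measured red blood cell genes were above 0, with a median of 0.73, and 5 of them did not overlap between the groups, where 2.18% of all genes did so with lucOS higher. Leaving out each tumour in turn gave medians from 0.34 to 0.88, the lowest without lucOS 2. Identical copies enter that count more than once: Hba-a1 and Hba-a2 hold the same values, and so do pairs of Hbb genes. Hba-a1, an α globin, read 1039, 1393 and 1398 and 1883, 3173 and 1825 (0.81 ± 0.35 (SE), unadjusted p 0.0451), and Alas2, the haem synthesis enzyme of red cells, read 169, 262 and 233 and 276, 455 and 272. The part of blood in the other differences was not tested. On the list of clock genes, 2 of 18 had an unadjusted p under 0.05. Of these, Cry2, a cryptochrome, read 1268, 1276 and 1385 with luc and 1917, 2178 and 1534 with lucOS, without overlap. Sox9, a bile duct and progenitor factor, read 214, 24.2 and 22.2 and 169, 140.1 and 497, with luc 1 inside the lucOS range. Of 12 female-biased liver genes, Abcd2 and Hao2, an oxidase of hydroxy acids, had an unadjusted p under 0.05, and Hao2 read 132, 241 and 157 and 74.95, 87.1 and 26.3.

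The remaining lists held few genes that set the groups apart. Of 15 NRF2 genes of the oxidative stress response, 11 were above 0 (median 0.18), and Gsta2 alone had an unadjusted p under 0.05. Of 9 bile duct genes 6 were above 0 (median 0.37), and the members with an unadjusted p under 0.05 were Onecut1 and Sox9, on opposite sides of 0. In the lists that follow 0 genes had an unadjusted p under 0.05. Members above 0 numbered 13 of 18 for mature hepatocyte genes (median 0.30), 6 of 19 for p53 targets (-0.11), 3 of 20 for ribosome biogenesis (-0.10) and 5 of 15 for immediate early and heat shock genes (-0.40). They numbered 8 of 15 for hypoxia and glycolysis (0.12), 7 of 15 for the integrated stress response (-0.013), 5 of 16 for endothelial genes (-0.034) and 6 of 11 for male-biased liver genes (0.0017). Few members of 3 other lists could be tested, and those above 0 numbered 0 of 3 for adipocyte genes, 2 of 2 for sex-linked genes and 2 of 3 for acinar pancreas genes.

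**Figure D4:**
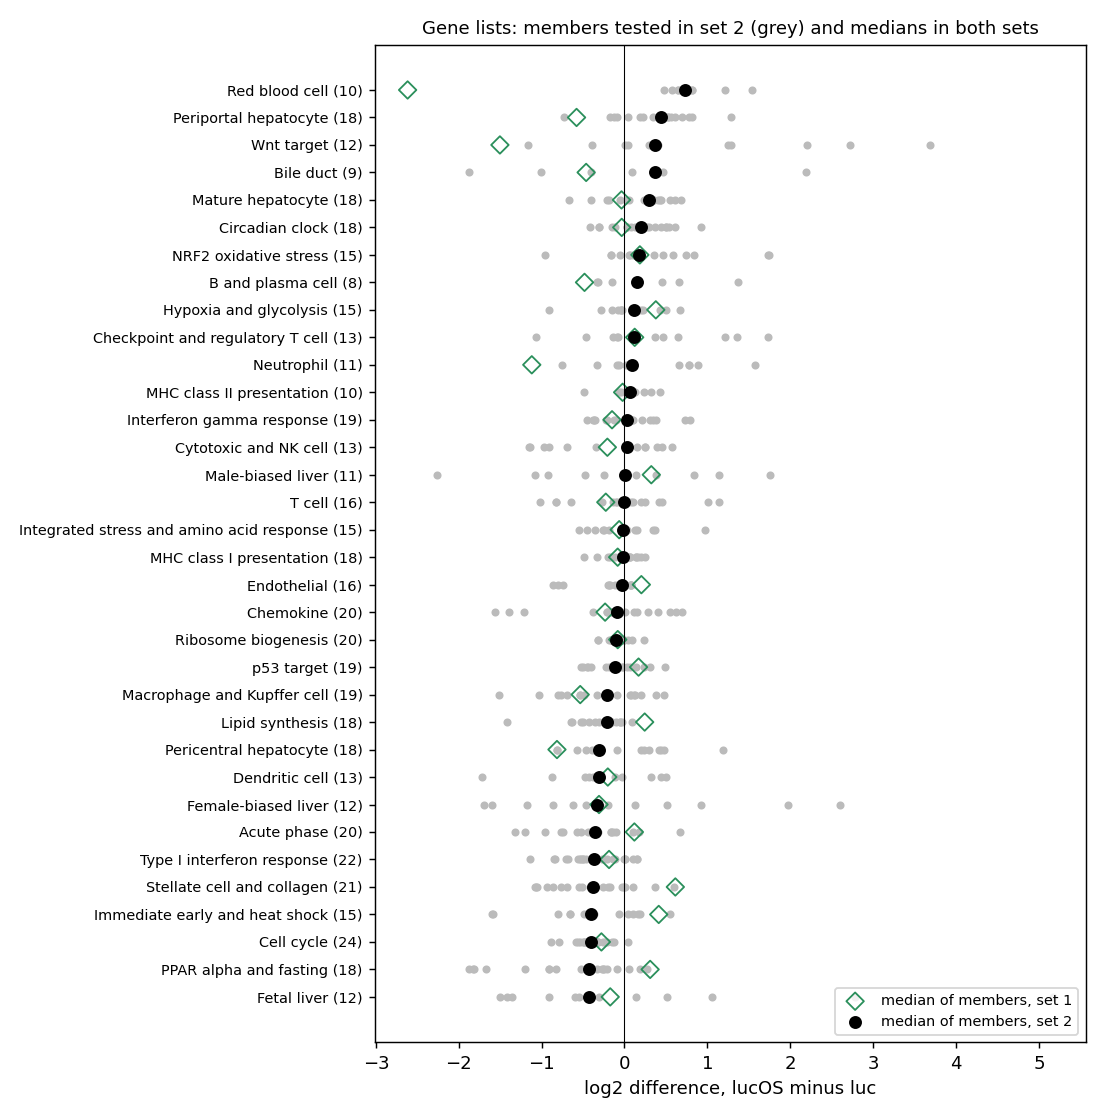
Log2 difference (lucOS minus luc) of each tested member of the 34 lists with at least 5 tested members (grey, second set), with the median of the list in the second set (black) and in the first set (open green diamond). The number of members tested in the second set is in brackets. Medians of the second set run from -0.43 to 0.73, and the red blood cell and Wnt target lists lie on opposite sides of 0 in the sets.

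Tumours of 1 group differed strongly among themselves. Among genes with a mean of at least 100 in either group, the 10 with the widest range within a group differed by at least 298 to 920-fold between their highest and lowest tumour. These folds are lower bounds, because lowest values under 3.56, which stands for 3 reads in the library with the largest value per read, were set to it. Some of these were high in luc 1 and lucOS 3. Cidea, a lipid droplet protein, read 9543 in luc 1 and 2101 in lucOS 3 and 17.5 or less in the other 4. Car4, a membrane carbonic anhydrase, read 5351 and 1913 in the same tumours and 14.5 or less elsewhere. Both genes were thus high in 1 tumour of each group. Others were high in luc 3 and lucOS 2. Afp, the fetal serum protein of liver, read 118, 2875 and 27610 with luc and 93.2, 58170 and 100.4 with lucOS. Tff3, a trefoil peptide of epithelia, read 1.73, 3.88 and 514 and 3.64, 2702 and 5.76. Timp4, an inhibitor of metalloproteinases, read 3.46, 368 and 1394 and 2.18, 3171 and 39.5. Gldc, of glycine breakdown, was highest in lucOS 2, at 17210, and next in luc 2, at 3238. Foxc1, a forkhead factor, was highest in lucOS 3, at 4040.

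**Figure D5:**
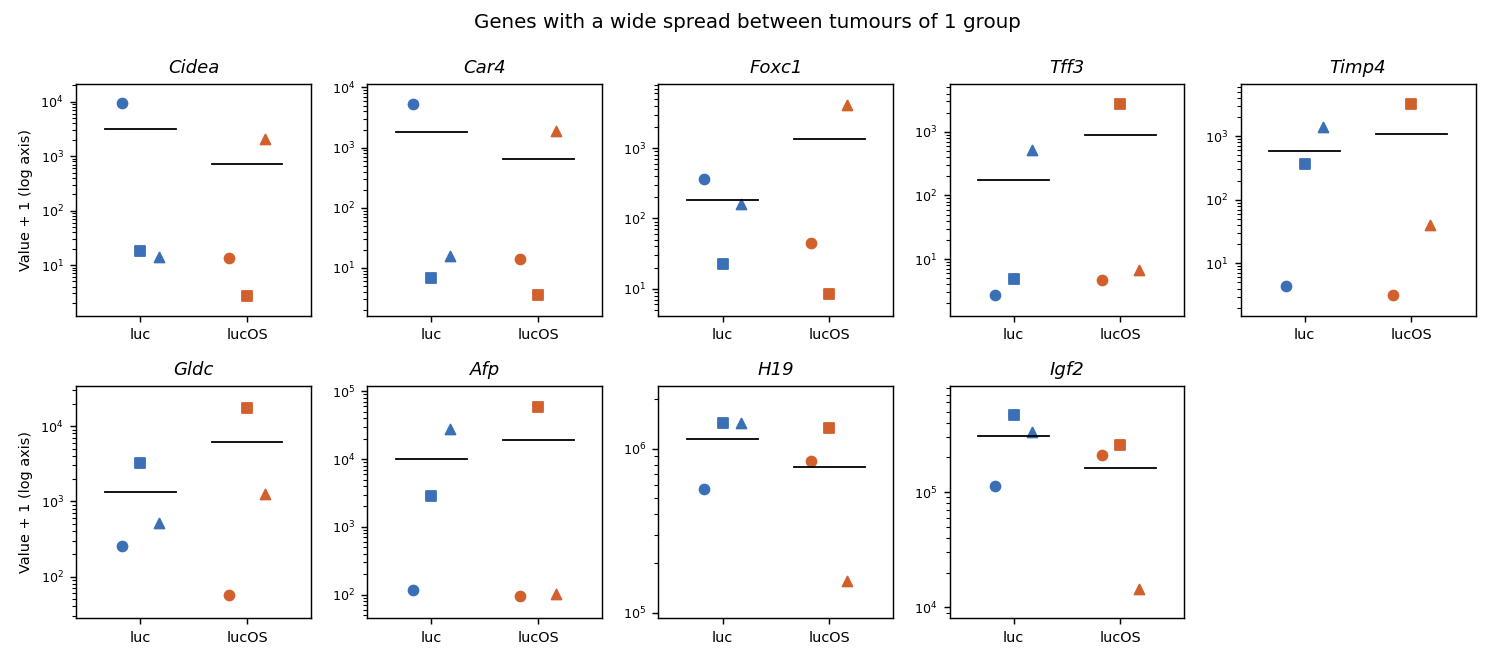
Deposited value plus 1 on a log axis in the 3 luc tumours (blue) and 3 lucOS tumours (orange) for 7 of the genes with the widest spread within a group and for H19 and Igf2; bars are group means and marker shapes give the tumour number. Cidea and Car4 are high in luc 1 and lucOS 3, while Afp, Tff3 and Timp4 are high in luc 3 and lucOS 2.

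The first set of tumours held the same contrast in other tumours, 2 with lucOS and 4 with luc. It was fitted within its own table, because the 2 tables were scaled separately, and the difference between the sets was not tested. There too limma called 0 of 16108 genes (0%), with 222 (1.38%) at an unadjusted p under 0.05. edgeR also called 0 there (405 at an unadjusted p under 0.05), and DESeq2 called 18. Across the 15378 genes tested in both sets, the log2 differences had a Pearson r of 0.0323 and a Spearman rank correlation of 0.0561, and 52.5% had the same sign. Of the 15 genes named as higher here, 5 were above 0 in the first set, and of the 15 named as lower, 7 were below 0. None of these 30 had an unadjusted p under 0.05 there. Onecut1 differed by -1.88 ± 0.32 (SE) here and by 0.48 ± 0.85 (SE) in the first set. For Scd1 the values were -1.41 ± 0.35 (SE) and 0.82 ± 0.78 (SE), and for Ngef 1.23 ± 0.23 (SE) and -1.25 ± 0.77 (SE). Each of these 3 changed sign between the sets. Ankrd54, which DESeq2 called here, changed sign too, at -0.465 ± 0.134 (SE) here and 0.528 ± 0.2075 (SE) in the first set. Its unadjusted p by limma in the first set was 0.0267. Cldn7, Mtus2, 1700048O20Rik and P2rx7, also called by DESeq2, were below 0 in both sets. In the first set 1700048O20Rik differed by -1.75 ± 1.41 (SE) and P2rx7 by -0.56 ± 0.64 (SE). The remaining genes that DESeq2 called here, Gpr155, Cubn and Acsl5, changed sign. Cd8a was above 0 in both (1.13 ± 0.55 (SE) and 0.32 ± 0.76 (SE)), as was Pdcd1 (1.73 ± 0.68 (SE) and 1.05 ± 0.94 (SE)). Both were picked after their values were seen. Ccl5 differed by -0.22 ± 0.66 (SE) in the first set, where the T cell list had 6 of 16 members above 0 (median -0.23) and the cytotoxic list 3 of 12 members above 0 (median -0.21). Several lists had a median below 0 in both sets. Cell cycle genes lay below 0 in 23 of 24 here and 24 of 24 in the first set (median -0.28). Type I interferon genes had 3 of 22 members above 0 in the first set (median -0.19), and macrophage and Kupffer cell genes 2 of 19 (median -0.53). The neutrophil list, with a median above 0 here, had 1 of 11 members above 0 there (median -1.12). The red blood cell list had 0 of 10 above 0 in the first set (median -2.62), the Wnt target list 1 of 13 (median -1.50), and the collagen list 18 of 21 (median 0.61). The lipid lists also lay on opposite sides of 0 in the sets: in the first set lipid synthesis had 15 of 19 members above 0 (median 0.24) and the PPARα list 13 of 18 members above 0 (median 0.31). In the first set Glul differed by -2.04 ± 0.53 (SE) and Nkd1 by -3.24 ± 0.84 (SE), at unadjusted p 0.00246 and 0.00245, whereas here the same genes differed by -0.32 ± 0.28 (SE) and 2.21 ± 1.14 (SE).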

How the data were processed

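Gene expression was measured by RNA sequencing of total RNA from tumours, with TruSeq libraries per the labels' protocols; strand is not stated, so overlapping and antisense genes cannot be told apart. Per the submitters' processing notes, which give no versions, the authors used TopHat2, featureCounts and DESeq2 with build mm10. The deposited signal of each table was, in 100% of values, a whole number of reads (tolerance 0.01 reads) over 1 factor per sample, and those reads served for depth and for the count-based tests. Repeat rows for a gene in the first table were reduced to the one with the highest mean. In the second table, 27 symbols turned into dates were left out of 24046 rows. The filter kept genes that reached 10 in 3 or more tumours (2 or more in the first set). The main test was limma 3.58.1 (R 4.3.3, eBayes with trend) on log2(value + 1). It took all groups of the table together and was two-sided. P-values were adjusted by Benjamini-Hochberg, and calls needed an adjusted p under 0.05. Differences are lucOS minus luc on the scale of log2(value + 1), and intervals are at 95%. The added 1 draws differences of low genes toward 0. The differences can still be larger or smaller than those of the count-based tests. Lin28b differed by 5.17 with limma, 4.23 with edgeR and 4.26 with DESeq2, and Cldn7 by -2.62, -4.91 and -4.91. edgeR 4.0.16 (quasi-likelihood) and DESeq2 1.42.0 were run on the recovered reads. The scripts were tested on simulated data. Positions are from GENCODE vM21.

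The comparison, its tests and the 37 gene lists (592 entries, 583 of them measured) were chosen with earlier results of these data known, so the lists describe and support nothing. The rule for named genes takes Myc, Ctnnb1, Trp53, Ccl5 and Xist; up to 15 genes per direction with the smallest p among those whose groups do not overlap and whose mean reaches 20 in the higher group; called members and the 3 most abundant members of each list; and the 10 genes with the widest spread within a group. In all, 99 genes are named, 72 by the rule; a few that it takes are not reported here. The other 27 were chosen after their values were seen: Cd8a, Cd3e, Gzmb, Pdcd1, Siglech, Clec9a, Cd5l, Axin2, Lgr5, Nkd1, Znrf3, Glul, Sox9, Cdc20, Plin2, Alas2, Col1a1, Cry2, Saa1, Ankrd54, Cldn7, Mtus2, Itgam, Retnlg, Hao2, Gsta1 and Apcdd1.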

Additional observations from a re-analysis of the deposited data

Results flagged for a closer look

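In the 4 p53 tumours, which serve only as a reference here, Cubn read 5517, 1710, 6015 and 5290, and the gap between the lowest tumour and the next was 0.831 of the whole range. Groups of 3 tumours are too small for this check, and chance alone sets about 1 in 20 groups of 4 apart in this way. Cubn was 1 of 12 genes whose p53 values were checked.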

How the results depend on the processing

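No gene was called under TMM scaling, a pseudocount of 5, no filter on low values, the 6 tumours fitted alone, the tumours named JAX only or with any of the 6 tumours left out (0 to 0 calls), and DESeq2 called 10. In the first set, 1 gene was called with no filter, DESeq2 called 18, and no other alternative called any (0 to 0 with a tumour left out). Genes at an unadjusted p under 0.05 in the second set numbered 446 with no filter, 160 with the 6 tumours alone, 165 with the tumours named JAX only and 489 with DESeq2. They numbered 247 to 739 with a tumour left out, among them 739 without luc 1, 692 without lucOS 1 and 499 without lucOS 3, and the cause was not tested. Of the 99 genes named, 65 kept the sign of their difference under the alternatives run. Where groups do not overlap, leaving out a tumour cannot reverse the sign. At least 30 of the 99 were picked for not overlapping, so their part of that count was fixed by the choice. Leaving out each tumour in turn moved the log2 difference across 0 for Myc -0.58 to 0.71, Ctnnb1 -0.033 to 0.0094, Ccl5 -0.21 to 0.96, Xist -0.17 to 0.18, Cd247 -0.26 to 0.23 and Cd4 -0.14 to 1.08. Ranges over left-out tumours that crossed 0 were also found for Cd3e -0.47 to 0.054, Gzmb -0.77 to 1.08, Foxp3 -0.19 to 0.043, Cd274 -0.23 to 0.052, Irf8 -0.53 to 0.021 and Lyz2 -0.30 to 0.57. They further included those of Cxcl12 -0.53 to 0.17, Ccl6 -0.50 to 1.37, H2-K1 -0.32 to 0.18, B2m -0.21 to 0.18, Cd74 -0.19 to 0.57 and H2-Ab1 -0.34 to 0.55. To these belong Alb -1.20 to 0.21, Axin2 -0.076 to 0.71, Lgr5 -0.25 to 0.31, Notum -0.96 to 0.40, Cyp2e1 -0.30 to 1.17 and Cps1 -0.42 to 0.90. The same held for Afp -4.43 to 0.49, H19 -1.54 to 0.0075, Mki67 -0.36 to 0.52, Cidea -4.49 to 1.40, Car4 -3.56 to 2.15 and Tff3 -1.76 to 3.59. Last came Timp4 -3.54 to 1.44, Gldc -1.51 to 2.62, Foxc1 -2.49 to 1.96 and Gsta1 -0.15 to 1.85. The difference changed sign with edgeR and DESeq2 for Ccl5 (-0.13 and -0.12), Gzmb (-0.44 and -0.43), B2m (-0.0085 and -0.0041), Afp (0.94 and 0.95) and Timp4 (0.87 and 0.89). With a pseudocount of 5, Gzmb was -0.0080. No paired analysis was possible because the labels give luc and lucOS tumours no shared replicate numbers. With 3 tumours a group and genes such as Pdcd1 at 0 to 13 reads, depth and number both limit what could be seen, and values cover counting error and tumour spread together.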
